A study of Homo sapiens with 6 samples.

Results

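The 9 genes described here act in retinoid metabolism and signalling, and nascent RNA from each was measured in the human colorectal carcinoma line HCT116. They are DHRS3, RDH10, RDH11, ALDH1A3, CRABP2, RARA, RARG, RXRA and RXRB, found by symbol among the 22984 sense-strand gene rows, and all 9 were listed in every library. The set was chosen by measured values of these same libraries: it was drawn up with the fold changes known, and DHRS3 and ALDH1A3 were among the strongest changes with C1-27 at 24 h. Their fold changes are therefore a description and carry no test.

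Bru-seq captures RNA made during a short pulse of bromouridine, here 2 mM for 30 min, so that the reads report ongoing transcription over exons and introns. Of 6 libraries, 2 came from cells given the vehicle DMSO (0.01%, 4 h). The other cultures, 1 library each, received GSTO1 siRNA (siGSTO1, 10 nM, 24 h), the GSTO1 inhibitor C1-27 (1 μM) for 4 h or for 24 h, or C1-14 (10 μM, 4 h), an analogue that the study used as an inactive control. GSTO1 is a glutathione transferase that works through a cysteine in its active site. Neither a control siRNA nor vehicle for 24 h was analysed here, so at 24 h treatment and time cannot be told apart. No label says that the DMSO libraries came from separate cultures grown at different times, and their spread may be technical.

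Retinoic acid is made from retinol by successive oxidations. Retinol dehydrogenases such as RDH10 form retinal, and aldehyde dehydrogenases such as ALDH1A3 oxidise retinal to retinoic acid, whereas DHRS3 and RDH11 can reduce retinal back to retinol. CRABP2 carries retinoic acid in the cell to the nuclear receptors RARα and RARγ (RARA, RARG), which bind DNA with a retinoid X receptor partner (RXRA, RXRB). DHRS3 is itself known as a gene that retinoic acid induces.

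Sense-strand counts per library were 18112861 and 32906297 in DMSO cultures 1 and 2, and ranged from 20214413 to 36841146 in the treated cultures. GSTO1 had an RPKM (reads per kb of gene length, scaled to the mapped reads of the library) of 3.51 and 3.72 in DMSO, of 2.70 with siGSTO1 and of 3.78 to 4.21 with the compounds. The siRNA library thus stood at 0.747 of the DMSO mean. This value is of nascent RNA and does not measure the loss of GSTO1 mRNA or protein. The study checked the knockdown separately, by fluorescent labelling of GSTO1 and by western blotting. Those checks were made later than 24 h after transfection and at other siRNA doses, so they do not cover this library. Of 8 epithelial markers, 4 were above 0.5 RPKM in every library, while CDH17 and VIL1 were at or near 0. All 6 markers of blood, stroma, endothelium and liver stayed below 0.5 RPKM in every library, and their sum ranged from 0.277 to 0.534. The DMSO cultures were not alike. Of 7825 genes, 19.1% differed at least 1.4-fold between them, most of these higher in culture 1, and the SD of the log2 ratio was 0.388. Each treatment is therefore given against both cultures and, where it matters, against each alone. In these bulk libraries, less RNA per cell and fewer cells making it cannot be told apart.

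The sequences just before the annotated starts of the 3 genes that moved most are shown because these were the genes past 1.4-fold in both 24 h libraries. Each holds the 250 bases upstream of a RefSeq start (GRCh38.p14), written 5′ to 3′ on the strand of the gene. Capitals mark a match to the hexamer bound by retinoic acid receptors, searched on both strands in the spelling AGGTCA, the spelling GGGTCA, the spelling AGTTCA and the spelling GGTTCA. DHRS3 has 3 listed starts, of which the first is at chr1:12618211-12618460 (minus strand) and the second at chr1:12616790-12617039 (minus strand). The RDH11 window is chr14:67695765-67696014 (minus strand) and the ALDH1A3 window chr15:100879581-100879830 (plus strand).
DHRS3, first start: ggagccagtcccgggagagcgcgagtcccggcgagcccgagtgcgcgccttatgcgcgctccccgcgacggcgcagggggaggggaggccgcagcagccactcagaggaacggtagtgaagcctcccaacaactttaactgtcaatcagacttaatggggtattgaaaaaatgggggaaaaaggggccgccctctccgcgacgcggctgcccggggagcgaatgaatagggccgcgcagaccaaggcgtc
DHRS3, second start: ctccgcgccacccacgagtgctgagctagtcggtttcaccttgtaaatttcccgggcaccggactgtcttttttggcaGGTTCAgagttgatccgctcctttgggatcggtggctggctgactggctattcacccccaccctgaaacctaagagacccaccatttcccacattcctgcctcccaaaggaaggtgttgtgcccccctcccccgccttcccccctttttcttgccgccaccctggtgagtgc
RDH11: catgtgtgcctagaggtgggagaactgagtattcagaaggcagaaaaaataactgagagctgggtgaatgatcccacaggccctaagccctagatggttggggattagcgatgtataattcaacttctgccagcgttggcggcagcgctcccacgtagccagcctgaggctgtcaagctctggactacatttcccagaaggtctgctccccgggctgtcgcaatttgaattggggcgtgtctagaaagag
ALDH1A3: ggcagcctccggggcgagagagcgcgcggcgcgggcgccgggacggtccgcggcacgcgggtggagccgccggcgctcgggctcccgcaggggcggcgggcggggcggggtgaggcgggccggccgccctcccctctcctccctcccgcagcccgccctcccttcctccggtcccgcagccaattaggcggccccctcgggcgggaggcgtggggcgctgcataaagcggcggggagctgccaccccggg

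The second DHRS3 window held GGTTCA, from 172 to 167 bases before the start, and the third DHRS3 window held the hexamer on the opposite strand, from 171 to 166 bases before it. The first DHRS3 window and those of RDH11 and ALDH1A3 held none. RDH10 was not searched. Over the other 8 members, 5 of 14 windows (35.7%) had a match, in DHRS3, CRABP2, RARA and RXRA, against 33.8% of all 35116 windows. Direct repeats of the hexamer spaced by 2 or 5 bases, the only repeats searched, are among the arrangements known for retinoic acid response elements. They were in no window of the members searched, and in 0.0313% and 0.0740% of all windows. The core of the antioxidant response element, TGACNNNGC, was found in both RXRA windows and in no other member searched (10.9% of all windows). The sterol regulatory element core, TCACNCCAC, matched no window of the members searched and 0.883% of all windows. These letters describe the windows and mark no bound site. ALDH1A3 had the most G and C of the 4 printed windows at 82.4%, and RDH11 the least at 52.8%, with a median of 58.0% over all windows.

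In DMSO, ALDH1A3 was the most transcribed member and RXRA the least. The mean RPKM was 7.16 ± 0.0456 (SD, n = 2) for ALDH1A3, 1.44 ± 0.00264 for RDH11, 1.01 ± 0.0873 for RDH10, 0.639 ± 0.137 for RARA and 0.519 ± 0.0364 for CRABP2. It was 0.418 ± 0.0612 for RXRB, 0.330 ± 0.077 for RARG, 0.290 ± 0.0636 for DHRS3 and 0.182 ± 0.0708 for RXRA. Within this order the DMSO values of RARA and CRABP2 overlapped, as did those of RXRB and RARG and those of RARG and DHRS3, and the other neighbours did not overlap. The DMSO cultures differed 1.76-fold at RXRA, 1.4-fold at RARG and 1.37-fold at DHRS3, and 6 of the 9 members were higher in culture 1. RDH11 and ALDH1A3 differed by under 1% between the DMSO cultures (ratios of 1.00 and 0.991).

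**Figure D1:**
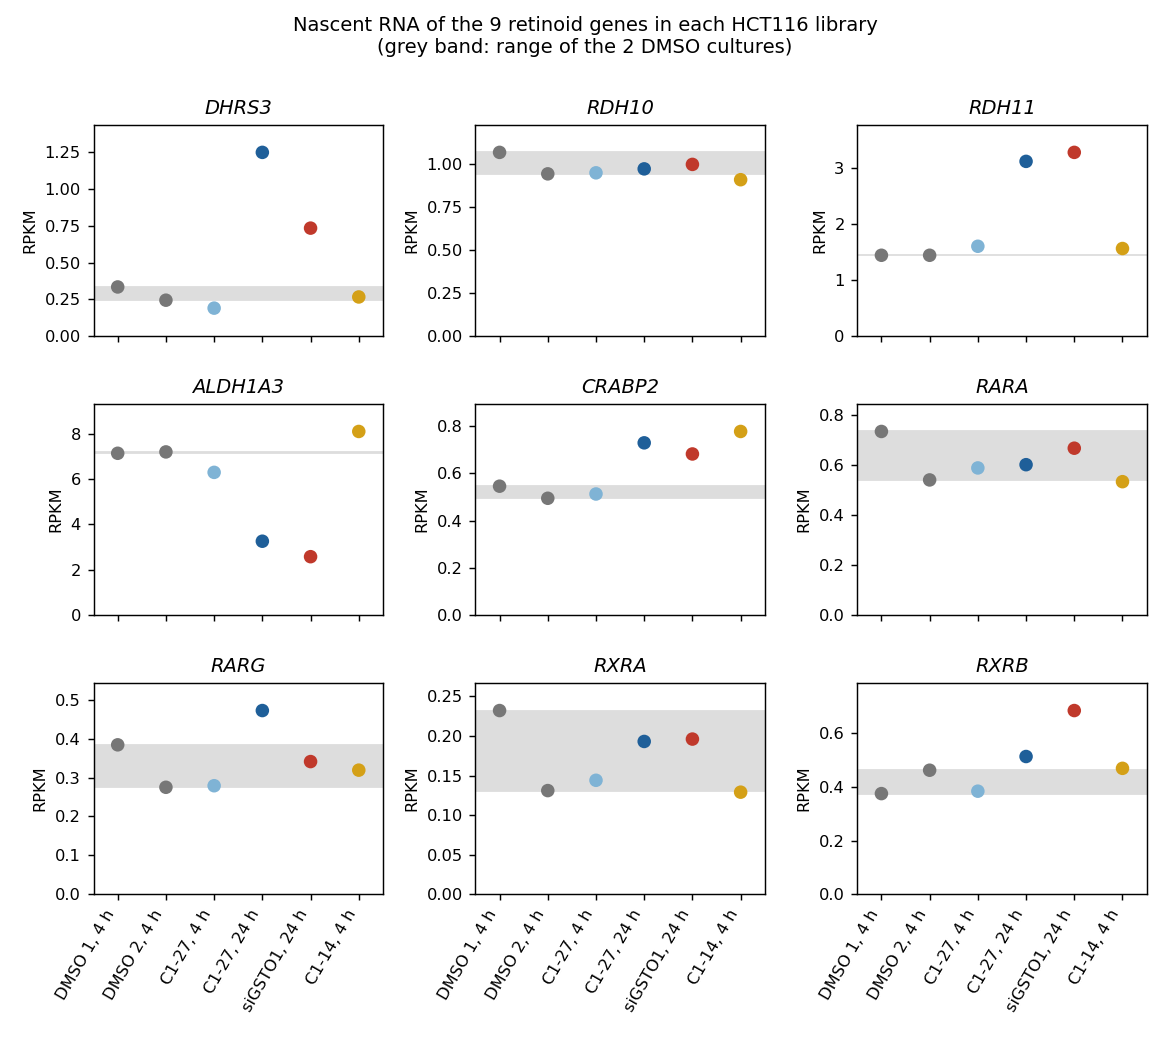
RPKM (vertical axis, from 0, with its own scale for each gene) of the 9 members in the 6 libraries, with the range of the DMSO cultures in grey. DHRS3 and RDH11 stood above and ALDH1A3 below the DMSO range in both 24 h libraries, while RDH10 stayed between 0.911 and 1.07 RPKM throughout.

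Among the 9 members, DHRS3 and RDH11, which can reduce retinal, had the largest rises. DHRS3, on chromosome 1 from 12627939 to 12677820 in hg19 (minus strand), had an RPKM of 0.335 and 0.245 in DMSO, 0.191 with C1-27 at 4 h, 1.25 with C1-27 at 24 h, 0.735 with siGSTO1 and 0.267 with C1-14. Both 24 h libraries were above the DMSO range, C1-27 at 4 h was below it, and C1-14 was within it. The fold over the DMSO mean was 4.31 with C1-27 at 24 h (3.73 and 5.09 over DMSO cultures 1 and 2) and 2.53 with siGSTO1 (2.19 and 3.00). These rest on 2868 counts with C1-27 at 24 h and 962 with siGSTO1, against 391 and 499 in DMSO. For the count ratio to DMSO the exact 95% interval (Clopper-Pearson) was 4.17 to 4.85 for C1-27 at 24 h and 2.41 to 2.90 for siGSTO1, and these intervals cover counting error only. No gene that passed the filter was above 2.2 on the log2 fold scale with C1-27 at 24 h, and DHRS3, at 2.11, was 1 of 2 genes above 2.1. DHRS3 passed this filter only through its high treated level and was chosen with this fold known, so its place is a description.

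At 4 h of C1-27 the DHRS3 fold was 0.657, or 0.569 and 0.778 over the single DMSO cultures. The shortfall below the lower DMSO culture was 0.607 of the difference between the DMSO cultures, and the gene fell below the level filter used for counting. From 4 h to 24 h of the same dose of C1-27, DHRS3 was 6.55-fold higher. That was the widest range of any member across the libraries, followed by ALDH1A3 with 3.13-fold and RDH11 with 2.27-fold.

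RDH11, another reductase of retinal, lies on chromosome 14 from 68143519 to 68162510 (hg19, minus strand). It had an RPKM of 1.44 in both DMSO cultures, 1.60 with C1-27 at 4 h, 3.11 with C1-27 at 24 h, 3.27 with siGSTO1 and 1.56 with C1-14. All 4 treated libraries were above DMSO, the 24 h libraries by 2.16-fold (C1-27) and 2.27-fold (siGSTO1) and the 4 h libraries by 1.11-fold (C1-27) and 1.08-fold (C1-14). The counts behind these levels were 641 and 1115 in DMSO, 2718 with C1-27 at 24 h and 1629 with siGSTO1. At 24 h the exact 95% interval of the count ratio was 2.03 to 2.29 for C1-27 and 2.12 to 2.43 for siGSTO1. For the small 4 h excesses it was 1.03 to 1.20 for C1-27 and 1.00 to 1.17 for C1-14. These intervals cover counting error only.

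RDH10, which oxidises retinol to retinal, did not follow. It lies on chromosome 8 from 74207265 to 74237516 (hg19, plus strand) and had an RPKM of 1.07 and 0.945 in DMSO, 0.951 with C1-27 at 4 h, 0.974 with C1-27 at 24 h, 1.00 with siGSTO1 and 0.911 with C1-14. The C1-27 and siGSTO1 values fell between the DMSO cultures, and C1-14 was below both by less than their difference. The folds were 0.905 to 0.993.

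ALDH1A3, which makes retinoic acid from retinal, was the only member called lower. It lies on chromosome 15 from 101420009 to 101456830 (hg19, plus strand), and its RPKM was 7.13 and 7.19 in DMSO, 6.29 with C1-27 at 4 h, 3.26 with C1-27 at 24 h, 2.58 with siGSTO1 and 8.09 with C1-14. Both C1-27 libraries and the siRNA library were below DMSO, and the C1-14 library was above it. The fold was 0.455 with C1-27 at 24 h (exact 95% interval of the count ratio 0.440 to 0.468) and 0.361 with siGSTO1 (0.346 to 0.376). At 4 h the fold was 0.878 with C1-27 at 1 μM and 1.13 with C1-14 at 10 μM, values given side by side because the doses differed. From 4 h to 24 h of C1-27 the ratio was 0.518.

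CRABP2, the carrier, lies on chromosome 1 from 156669400 to 156675608 (hg19, minus strand) and was the only member above the level filter that was past 1.4-fold with C1-14. Its RPKM was 0.545 and 0.494 in DMSO, 0.512 with C1-27 at 4 h, 0.728 with C1-27 at 24 h, 0.681 with siGSTO1 and 0.776 with C1-14. The last 3 libraries were above both DMSO cultures and C1-27 at 4 h was between them. The folds were 1.4 with C1-27 at 24 h, 1.31 with siGSTO1 and 1.49 with C1-14, on 208, 111 and 167 counts. Against DMSO culture 1 alone the C1-27 fold at 24 h was 1.34, under 1.4. This short gene had few reads, and the exact interval of its count ratio ran from 1.17 to 1.73 for C1-27 at 24 h, from 1.05 to 1.68 for siGSTO1 and from 1.23 to 1.87 for C1-14.

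Of the receptors, RXRB with siGSTO1 alone was called. RXRB, on chromosome 6 from 33161365 to 33168432 (hg19, minus strand), had an RPKM of 0.375 and 0.462 in DMSO, 0.384 with C1-27 at 4 h, 0.513 with C1-27 at 24 h, 0.684 with siGSTO1 and 0.469 with C1-14. The siGSTO1 fold was 1.64 (1.82 and 1.48 over DMSO cultures 1 and 2), on 127 counts against 62 and 133, with an exact interval of 1.26 to 2.00. The C1-27 library at 24 h was also above both DMSO cultures, by 0.597 of the difference between them, and its fold was 1.23.

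RARG, on chromosome 12 from 53604350 to 53626040 (hg19, minus strand), had an RPKM of 0.384 and 0.275 in DMSO, 0.279 with C1-27 at 4 h, 0.472 with C1-27 at 24 h, 0.341 with siGSTO1 and 0.319 with C1-14. Only C1-27 at 24 h was outside the DMSO range, with a fold of 1.43 (1.23 and 1.72 over the single cultures), and the gene was below the level filter. RARA, on chromosome 17 from 38465423 to 38513895 (hg19, plus strand), ranged from 0.535 to 0.736 RPKM, with folds of 0.836 to 1.05, and only C1-14 was outside the DMSO range. RXRA, on chromosome 9 from 137218316 to 137332431 (hg19, plus strand), ranged from 0.129 to 0.232 RPKM, and its DMSO cultures marked nearly the whole range. Its fold with C1-14 was 0.710 (0.557 and 0.981 over DMSO cultures 1 and 2), below the level filter. At 24 h the folds of the 4 receptor genes over the DMSO mean ran from 0.943 to 1.64. Those of DHRS3, RDH11 and ALDH1A3 were 2.16 or more, or 0.455 or less. Over DMSO cultures 1 and 2 alone, RXRA was at 0.833 and 1.47 with C1-27 at 24 h and at 0.845 and 1.49 with siGSTO1, so its direction depended on the culture.

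**Figure D2:**
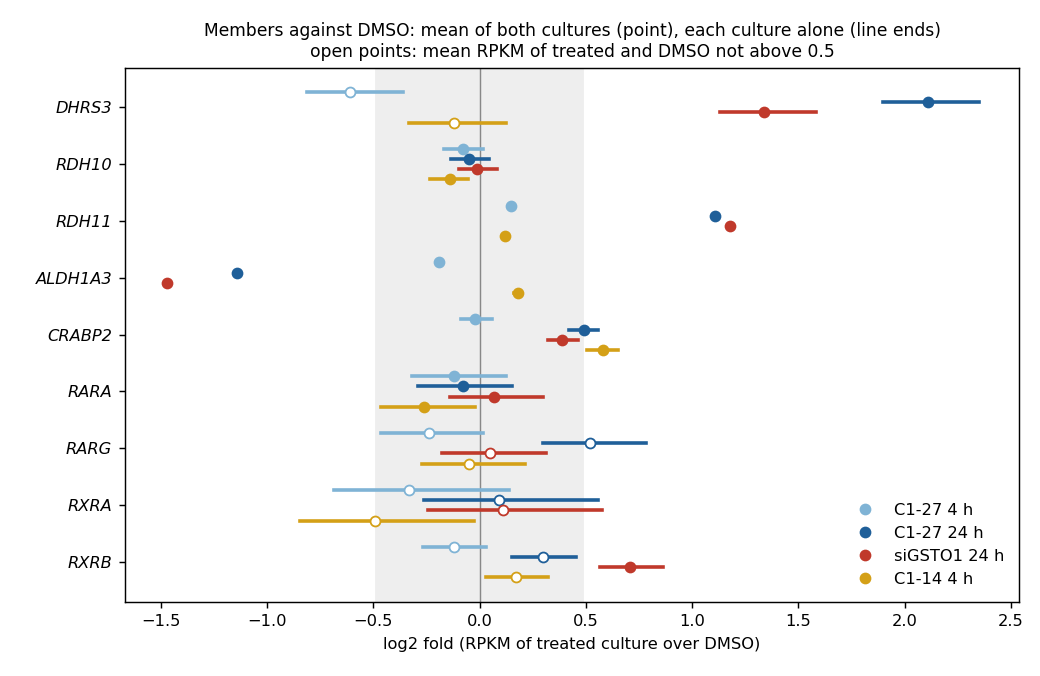
Log2 fold of RPKM over DMSO (horizontal axis) for each member and treatment, with points at the fold over the mean of the DMSO cultures, line ends at the fold over each culture alone, open points for a mean RPKM not above 0.5, and grey for less than 1.4-fold. The dark blue (C1-27, 24 h) and red (siGSTO1, 24 h) points of DHRS3, RDH11 and ALDH1A3 lie outside the grey band, and their lines do not cross it.

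The members were next counted with the thresholds that the study states for gene size, mean RPKM and fold: over 300 bp, above 0.5, here as the mean of treated and control, and 1.4-fold or more in either direction. How the study took the mean is not stated in the sources used here, and the counts are not the same. The study kept more genes in each treatment than were kept here. With siGSTO1 it called more genes lower than higher, the reverse of the shares below. With C1-27 at 4 h, 5 of 9 members passed the level filter and none was called, where 0.457% of 7667 genes were called higher and 2.22% lower. With C1-27 at 24 h, 6 passed, 3 were higher (DHRS3, RDH11, CRABP2) and 1 lower (ALDH1A3), against 3.23% of 7918 genes higher and 3.49% lower. With siGSTO1, 7 passed, 3 were higher (DHRS3, RDH11, RXRB) and 1 lower (ALDH1A3), against 10.5% of 8138 genes higher and 6.48% lower. With C1-14, 5 passed and 1 was higher (CRABP2), against 3.71% of 7784 genes higher and 1.01% lower. Because the members were drawn up from these contrasts, nothing is read from these shares. DHRS3 and RXRB passed the filter only where they were high.

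For C1-27 at 24 h over C1-27 at 4 h, 6 members passed, 3 were higher (DHRS3 6.55, RDH11 1.94, CRABP2 1.42) and ALDH1A3 was lower (0.518), against 5.16% of 7784 genes higher and 1.61% lower. The median log2 fold over all 9 members was -0.12 with C1-27 at 4 h, 0.30 with C1-27 at 24 h, 0.11 with siGSTO1 and -0.05 with C1-14. Over all genes that passed the filter it was -0.011, 0.03, -0.001 and 0.006. The CRABP2 fold fell under 1.4 with TMM, with DESeq2 size factors and with a pseudocount of 0.1 RPKM, at 1.31 to 1.35 for 24 h over 4 h and at 1.34 to 1.35 for 24 h over DMSO. All 4 treatments share the DMSO cultures as control, so their values are not independent of each other. The higher and lower shares of all genes depended on scaling. With the trimmed mean of M values (TMM) they were 2.46% and 4.51% for C1-27 at 24 h, 7.14% and 11.2% for siGSTO1, and 3.21% and 2.60% for C1-27 at 24 h over 4 h. The median log2 fold of all genes with siGSTO1 moved from -0.001 to -0.114 with TMM and to -0.15 with DESeq2 size factors, and the folds with these scalings were 1.51 and 1.47 for RXRB and 2.35 and 2.30 for DHRS3.

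**Figure D3:**
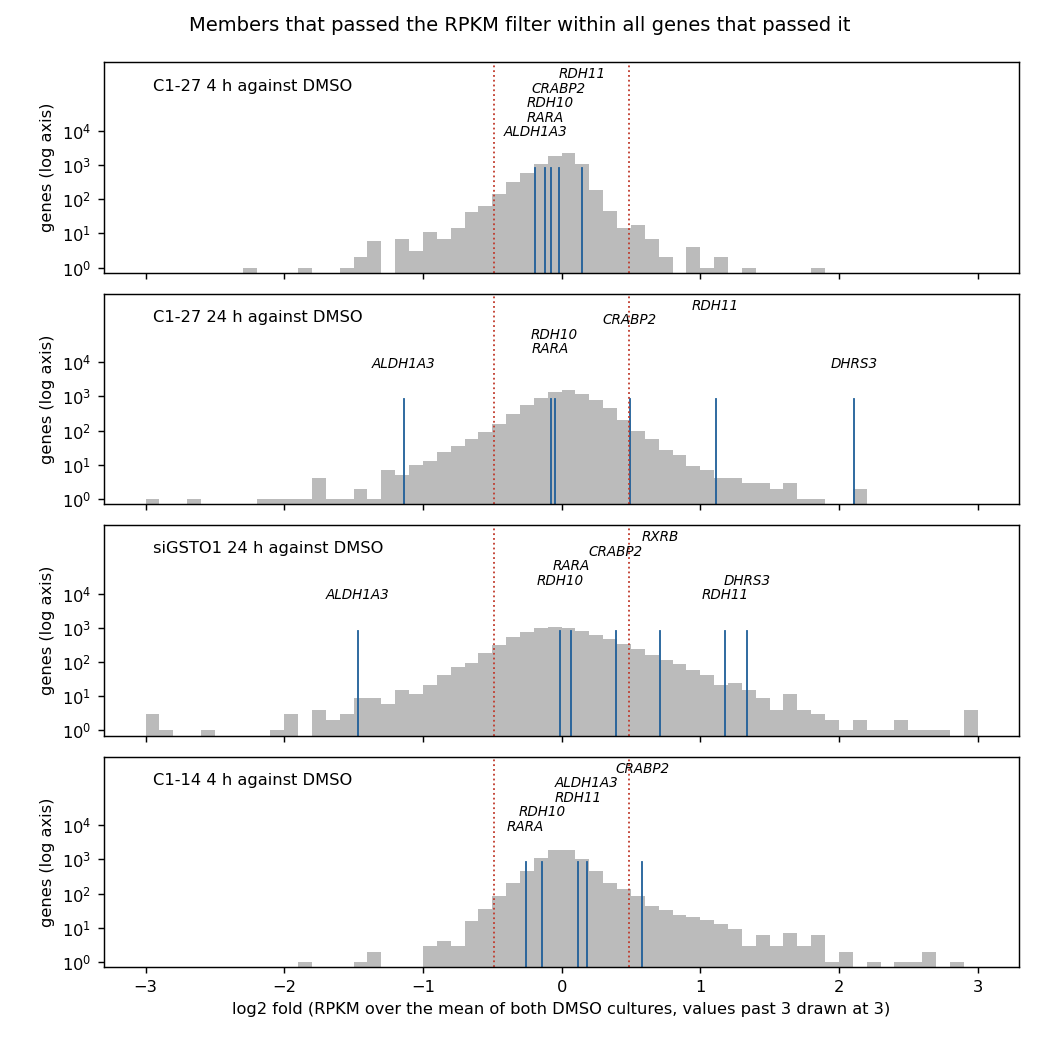
Number of genes that passed the filter (vertical log axis) by log2 fold over the DMSO mean (horizontal axis) for each treatment, with blue lines for members that passed and red dotted lines at 1.4-fold. With C1-27 at 24 h, DHRS3 at 2.11 lay in the highest occupied bin and ALDH1A3 at -1.14 in the lower tail. With C1-27 at 4 h all 5 members that passed lay between the dotted lines. DHRS3 passed the filter only where it was high, and its place is a description.

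The rest of the pathway was taken from a list of 74 other retinoid genes, of which 73 were in the files and 45 had enough counts to test. In DMSO, FABP5, another fatty acid and retinoic acid carrier, had the highest level at 7.93 ± 0.255 RPKM (SD, n = 2), followed by ADH5 at 2.53 ± 0.079 and the acetyltransferase EP300 at 2.26 ± 0.0285. The remaining 28 genes were near 0, with no level above 0.0221 RPKM in any library, and 9 of them had no count at all. The alternative retinal oxidases ALDH1A1 and ALDH1A2 had at most 11 and 12 counts in any library, the receptors RARB and RXRG at most 3 each, the retinoic acid hydroxylase CYP26A1 at most 3, the retinol transporter STRA6 at most 4, and the carrier CRABP1 had none. The highest RPKM of ALDH1A1 and ALDH1A2 in any library was 0.0054 and 0.00276, where the lowest of ALDH1A3 was 2.58.

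No gene of the list was called in any treatment by edgeR's quasi-likelihood test with Benjamini-Hochberg adjustment over 14431 genes, nor by DESeq2. The same test called 0.0139% of all genes higher and 0.0% lower with C1-27 at 4 h, 0.159% and 0.118% with C1-27 at 24 h, 3.0% and 1.16% with siGSTO1, and 0.111% and 0.00693% with C1-14. Only the difference between the DMSO cultures, 1 residual degree of freedom, gives this test its spread. At an unadjusted p under 0.05 the list gave 0 genes with C1-27 at 4 h, 3 with C1-27 at 24 h (RDH12, BHLHE40, HOXA3), 5 with siGSTO1 (DHRS7, TNFAIP2, HOXB2, CYP26B1, LRAT) and 0 with C1-14. As a share of the 45 genes this was 6.67% with C1-27 at 24 h and 11.1% with siGSTO1, against 3.74% and 14.3% of all genes tested, and 0.721% and 1.42% of all genes with C1-27 at 4 h and C1-14. The median edgeR log2 fold of the 45 genes was -0.04, 0.10, 0.24 and 0.01 in the same order, against -0.023, -0.002, 0.015 and -0.001 over all genes tested.

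LRAT, which stores retinol as its ester, came nearest to a call. With siGSTO1 its count was 85, beside 12 and 51 in DMSO, with an edgeR log2 fold of 1.70 (standard error 0.584) and an edgeR adjusted p of 0.0737. Its RPKM was 0.355 with siGSTO1, 0.0563 and 0.136 in DMSO, and 0.131 to 0.143 in the other treated libraries. Only the siRNA library was above the DMSO range by more than the difference between the DMSO cultures. CYP26B1, which breaks down retinoic acid, had an RPKM of 0.147 with siGSTO1, 0.0736 and 0.0448 in DMSO, and 0.0527 to 0.0848 in the other treated libraries. Its edgeR log2 fold with siGSTO1 was 1.23 (standard error 0.593, edgeR adjusted p = 0.303).

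Past 1.4-fold over each DMSO culture alone, and above the level filter, were 3 listed genes with C1-27 at 24 h and 4 with siGSTO1, and none of these passed the edgeR test. They were 2 higher and 1 lower of 16 listed genes above the filter with C1-27, against 1.89% of all genes higher and 0.897% lower, and 4 higher of 17 with siGSTO1, against 6.49% higher and 3.29% lower. DHRS7, a relative of DHRS3, had an RPKM of 0.485 and 0.493 in DMSO, 0.735 with C1-27 at 24 h (1.5-fold) and 0.897 with siGSTO1 (1.84-fold). BHLHE40, a transcription factor that retinoic acid can induce, had an RPKM of 0.711 and 1.18 in DMSO, 2.01 with C1-27 at 24 h (2.12-fold) and 1.79 with siGSTO1 (1.90-fold). HOXB4 was at 0.626 of DMSO with C1-27 at 24 h and at 0.857 with siGSTO1, while HOXB3 was at 0.936 and 1.57 and the coactivator NCOA3 at 1.29 and 1.47. Of the 12 known target genes of retinoic acid that were tested, mostly HOX genes, the edgeR log2 folds ranged from -1.01 to 1.92 with siGSTO1 and from -0.83 to 1.56 with C1-27 at 24 h, in both directions.

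**Figure D4:**
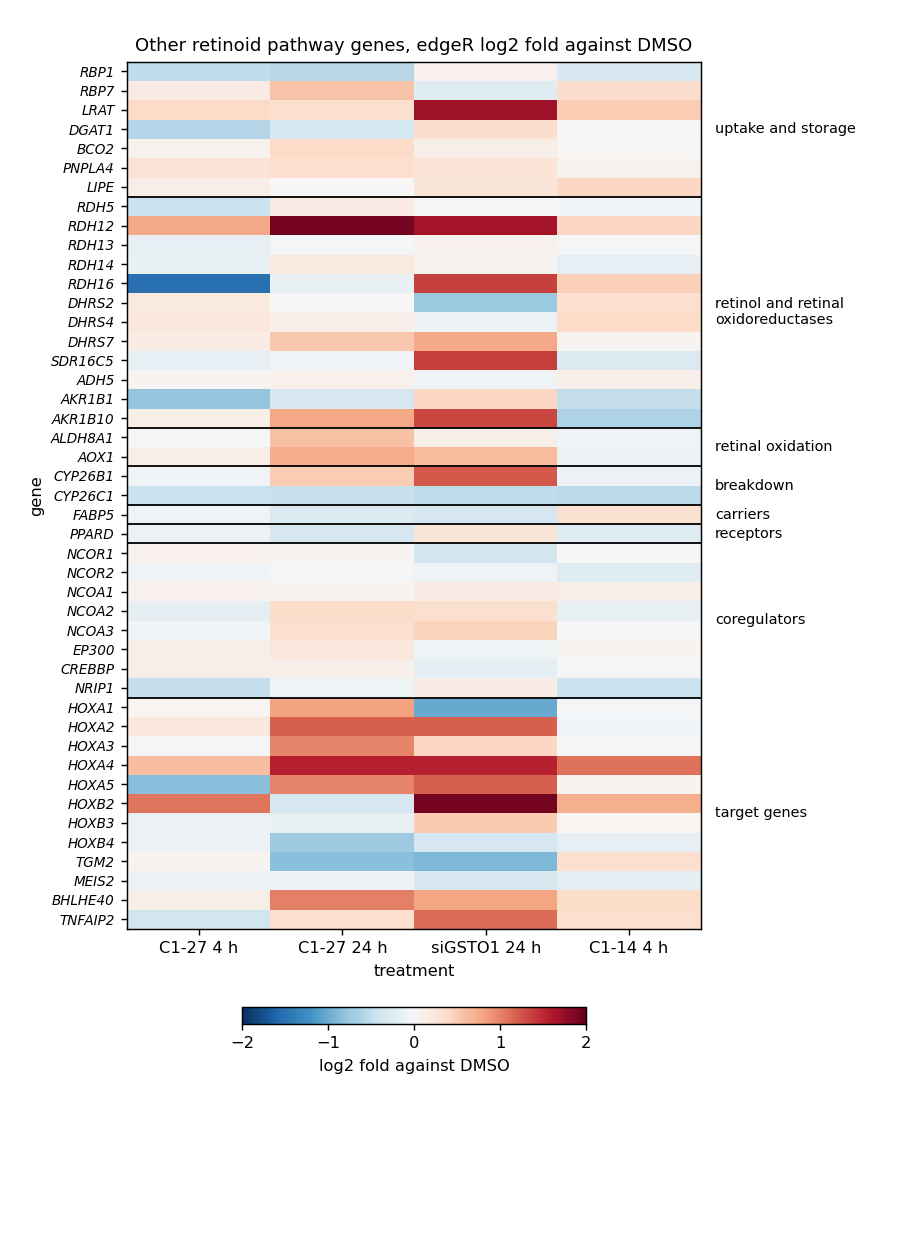
EdgeR log2 fold over DMSO (colour, from -2 in blue to 2 in red) of the 45 other retinoid genes tested, in rows grouped by role, for the 4 treatments in columns. The deepest reds were RDH12 and HOXA4 in both 24 h columns, and LRAT and HOXB2 with siGSTO1 only. The deepest blue was RDH16 with C1-27 at 4 h, at -1.5. These genes had at most 85 counts in any library, and no cell passed the edgeR test.

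The genes closest in profile to DHRS3 and ALDH1A3 were found by the Euclidean distance between log2(RPKM + 0.1) values over the 6 libraries, each relative to DMSO, among 7912 genes. Such genes are picked by their likeness in these libraries, so shared values are not a separate result. For DHRS3 the closest were FDFT1 (distance 0.735), IDH1 (0.825), PHF21A (0.939), RDH11 (0.976) and EGR1 (0.979). With C1-27 at 24 h and siGSTO1 they had folds of 2.89 and 2.41 for FDFT1, the squalene synthase, 2.98 and 3.09 for IDH1, a cytosolic NADPH-forming dehydrogenase, and 2.32 and 2.45 for PHF21A. EGR1, an immediate-early transcription factor, had folds of 2.32 and 3.08. Of these, FDFT1 shared with DHRS3 the larger value with C1-27, and IDH1, PHF21A, RDH11 and EGR1 had the larger value with siGSTO1. None shared the 4 h value of DHRS3 with C1-27: their folds ran from 0.944 to 1.14, where that of DHRS3 was 0.657. With C1-14 they ran from 0.984 to 1.44, where that of DHRS3 was 0.919.

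For ALDH1A3 the nearest were NT5E (0.343), DKK1 (0.449), PDLIM2 (0.460), GPRC5A (0.495) and ADM (0.579). NT5E, an ecto-nucleotidase, had folds of 0.429 with C1-27 at 24 h and 0.364 with siGSTO1, and DKK1, a secreted Wnt antagonist, 0.538 and 0.398. All 5, like ALDH1A3, were lower in both 24 h libraries, and for each the siRNA fold was the lower value. Because they were picked by this profile over the same libraries, the likeness is not a separate result. Among the 4 h values of these 5 genes, folds ranged from 0.855 to 1.06 with C1-27 and from 0.893 to 1.11 with C1-14.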

How the data were processed

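Bru-labelled RNA of 6 HCT116 libraries was analysed. The deposited text files hold, per gene and strand, expected counts over exons and introns (not normalized, many not whole), a signal (count per bp, not used in a test) and RPKM made by the authors from the mapped reads of each library, 23388425 to 46017052. Per the labels, CASAVA 1.8.2, Bowtie 0.12.8, TopHat 1.4.1, bedtools 2.16.2 and hg19 were used, with no roles stated there. Sense counts were 18112861 to 36841146 per library. The siRNA culture was taken as 24 h, as its label says, where a sentence of the methods reads as 4 h.

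Folds were the treated RPKM divided by the mean of the DMSO cultures, without a pseudocount, for genes over 300 bp with a mean of treated and control RPKM above 0.5, called at 1.4-fold. Exact 95% Clopper-Pearson intervals of count ratios cover counting error only. For the pathway list, rounded counts of genes over 300 bp that reached 10 counts in 2 or more libraries were fitted with edgeR 4.0.16 (R 4.3.3) in 5 groups, with TMM, quasi-likelihood F tests and p-values adjusted by Benjamini-Hochberg over 14431 genes. DESeq2 1.42.0 was the alternative. Python 3.11.15, numpy 2.4.6, pandas 2.3.3, scipy 1.17.1 and matplotlib 3.10.9 were used. 

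The members, the pathway list, the markers and the motifs were chosen with earlier results of these data known. Named were all members, list genes called by edgeR, or past the filter and 1.4-fold over each DMSO culture alone, the 5 nearest profiles of DHRS3 and ALDH1A3, and GSTO1. List genes with an unadjusted p under 0.05, the abundant or near-absent list genes and those named in the caption were chosen after their values were seen. Motifs were searched in the 250 bases before RefSeq starts (GRCh38.p14) for 8 of 9 members, and RDH10 was not searched. Gene coordinates are those of the files (hg19). Alternatives covered the DMSO culture, scaling, a pseudocount, the filters and the test. Antisense rows were used only for the closing section, and 48 ambiguous rows were not used.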

Additional observations from a re-analysis of the deposited data

Results flagged for a closer look

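DHRS3 stood below DMSO at 4 h of C1-27 and above it at 24 h. Its fold over the DMSO mean was 0.657 at 4 h, below each DMSO culture, and 4.31 at 24 h, above each. The shortfall at 4 h was only 0.607 of the difference between the DMSO cultures, and the gene was below the level filter there. With 1 culture per time the difference was not tested, and time and culture cannot be told apart.

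On the antisense strand, which the comparisons above do not use, CRABP2 had 12 reads with siGSTO1, 0 in both DMSO cultures and 1 to 2 in the other treated libraries. The exact 95% interval of the ratio to DMSO, scaled for depth, has a lower bound of 6.79. RARG had 14 antisense reads with C1-27 at 24 h, 0 and 2 in DMSO and 0 to 3 in the other treated libraries, a ratio of 9.76 with an interval of 2.24 to 88.5. RDH10, with more antisense reads than these, was lower than DMSO (49 and 61 reads) with C1-27 at 24 h (36 reads, ratio 0.456, interval 0.304 to 0.670), with C1-27 at 4 h (43 reads, 0.649, 0.445 to 0.931) and with C1-14 (39 reads, 0.656, 0.443 to 0.954), and the ratio with siGSTO1 was 0.867 (0.585 to 1.26). These intervals cover counting error only, and 9 members were looked at in 4 treatments.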

How the results depend on the processing

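No member that was called changed direction under any alternative run. The folds at 24 h ranged from 3.46 to 5.09 for DHRS3, 2.05 to 2.16 for RDH11 and 0.433 to 0.462 for ALDH1A3 with C1-27, and from 2.14 to 3.00, 2.04 to 2.27 and 0.325 to 0.370 with siGSTO1. CRABP2 with C1-27 at 24 h ranged from 1.34 to 1.47. Leaving out each DMSO culture in turn gave 0 to 0 members called for C1-27 at 4 h, 3 to 4 for C1-27 at 24 h (CRABP2 was lost over culture 1, and also with TMM, DESeq2 size factors and the pseudocount, as it was for 24 h over 4 h), 3 to 4 for siGSTO1 (DHRS3 fell below the filter with culture 2, where the control mean is lower) and 1 to 1 for C1-14. With a mean RPKM above 1, 2 members were called for C1-27 at 24 h, siGSTO1 and C1-27 at 24 h over 4 h, and 0 for C1-14. The 2 were RDH11, higher, and ALDH1A3, lower, and DHRS3 was lost from each of these comparisons. With no filter, 1 was called for C1-27 at 4 h (DHRS3, lower) and 2 for C1-14 (CRABP2, and RXRA lower). Without it, 5 were called for C1-27 at 24 h and for 24 h over 4 h, with RARG added as higher, and 4 for siGSTO1. In edgeR with at least 50 counts in 2 libraries, which tests fewer genes, LRAT was called with siGSTO1 (1 gene of the list, log2 fold 1.74, edgeR adjusted p = 0.0418). A likelihood-ratio test in edgeR, added after seeing the data, called it as well (1 gene of the list, edgeR adjusted p = 0.0338), and over all settings its adjusted p ranged from 0.0338 to 0.356, the highest in DESeq2.

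Counts over all genes moved more. For 1.4-fold higher and lower they were 852 and 527 with siGSTO1, and 581 and 911 with TMM, 521 and 1104 with DESeq2 size factors, 1381 and 618 over DMSO culture 2, 4874 and 2373 without a filter and 350 and 402 with a mean RPKM above 1. For C1-27 at 24 h they were 256 and 276, and 173 and 374 with DESeq2 size factors, 377 and 816 over culture 1, 520 and 174 over culture 2, 2306 and 2470 without a filter and 116 and 170 with a mean RPKM above 1. For C1-27 at 4 h they were 35 and 170, and 156 and 969 over culture 1, 40 and 31 over culture 2, 1312 and 2745 without a filter and 17 and 79 with a mean RPKM above 1. For C1-14 they were 289 and 79, and 323 and 584 over culture 1, 575 and 16 over culture 2, 263 and 47 with a pseudocount of 0.1, 1586 and 2453 without a filter and 225 and 30 with a mean RPKM above 1. For C1-27 at 24 h over 4 h they were 402 and 125, and 250 and 202 with TMM, 199 and 268 with DESeq2 size factors, 2967 and 1906 without a filter and 135 and 85 with a mean RPKM above 1. EdgeR called 2 and 0 genes with C1-27 at 4 h, and 1 and 0 with DESeq2-type size factors or with a filter of 1 count. EdgeR called 433 and 168 genes with siGSTO1 and 16 and 1 with C1-14, and DESeq2 called 268 and 244, and 4 and 0. With siGSTO1 the counts also depended on the form of the edgeR fit: 520 and 151 without scaling factors and 510 and 181 in the likelihood-ratio test, both added after seeing the data, so that the share of all genes called is approximate. Without scaling factors C1-14 gave 9 and 1. The causes were not tested.

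No paired analysis was possible because each treatment has 1 culture without a replicate number. EdgeR without either DMSO culture was not run, since no residual degree of freedom is left. Depth limits CRABP2 and RXRB most, with 62 to 208 counts per library.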
